A study of Drosophila melanogaster with 10 samples.

Results

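Heterochromatin is the compact, mostly silent chromatin that surrounds centromeres and fills repeat-rich regions. In Drosophila it is marked by methylation of histone H3 on lysine 9 (H3K9), which is written by methyltransferases and read by Heterochromatin Protein 1 (HP1) through its chromodomain. HP1 binds the methylated tail, joins with itself through a second domain, the chromo shadow domain, and gathers further proteins on chromatin. It is a silencing system separate from that of the Polycomb group (PcG), which reads methylation of another lysine of the same histone tail. Genes of both systems were first found in flies, those of heterochromatin largely as suppressors of position-effect variegation, the patchy silencing of a gene moved next to heterochromatin.

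The RNA levels of 10 such genes were examined, chosen by name. They were the HP1 genes HP1a, HP1b, HP1c and HP1e, the H3K9 methyltransferase genes Su(var)3-9, egg and G9a, and the genes of the HP1-associated proteins Su(var)3-7, HP4 and HP5. All 10 had values, on 18 transcript entries, out of 15240 genes and 30551 entries in all.

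The study asked how polymerization of the PcG protein Polyhomeotic (Ph) shapes chromatin in S2 cells, a cultured line derived from Drosophila embryos. Of the 10 samples of this series, which is a part of the study, the 2 used here are replicates of S2 RNA. This is ribosomal-RNA-depleted total RNA of cells labelled WT, without a Ph transgene. Per the labels, the cells came from 1 supplier's stock (Expression Systems) and received copper sulphate at 0.5 mM for 3 days, as did the cells of every other sample. The other 8 samples, ChIP and input of Ph-WT and Ph-ML cells, were not analysed here, so what follows describes 1 condition and holds no comparison between cell lines. The study also compared RNA of Ph-WT and Ph-ML cells with that of S2 cells, but such RNA is not among these samples.

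Values are RPKM, reads scaled to transcript length in kilobases and to library size, so that levels can be compared between genes per length. In such bulk RNA, fewer expressing cells and less RNA per cell cannot be told apart. The labels do not say that the libraries came from separate cultures, while the study speaks of biological replicates, so their spread may be partly technical. The level of a gene is the median over its transcript entries in each library, and errors are the SD over the 2 libraries. Because RPKM moves in steps of 1 read, the depth could be worked out, as about 37100000 reads for replicate 1 and 9500000 reads for replicate 2. On a log2 scale, Pearson's r between the libraries was 0.992 across genes, which are not independent replicates. A floor of 3 reads over 1 kb amounts to 0.0810 RPKM in the deeper library, replicate 1, and to 0.316 RPKM in replicate 2, for counting error only.

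The blood cell character of S2 cells was checked first. Of 6 plasmatocyte genes, 4 were at 5 RPKM or more, and together the 6 summed to 125 RPKM in replicate 1 and 117 in replicate 2. The receptor gene Pvr led with 71.1 ± 2.15 RPKM (SD, n = 2), while NimC1 was at 0.0132 RPKM in replicate 1 and at 0 in the other library. The 6 germline genes summed to 8.10 and 6.98 RPKM, mostly through aub at 5.05 ± 0.132 RPKM, and the germ cell gene vas had 0.128 and 0.0470 RPKM. The neuron genes elav and nSyb summed to 2.42 and 3.36 RPKM, nearly all of it from elav at 2.83 ± 0.727 RPKM, which was above the blood cell gene Hml. The other neuron gene, nSyb, had 0.103 and 0.0147 RPKM. The muscle genes Mhc and up summed to 0.109 and 0.0632 RPKM. Of the other blood cell markers, crq at 30.5 ± 2.24 RPKM and eater at 12.4 ± 0.891 RPKM were also high. The marker srp, at 5.75 ± 0.0422 RPKM, lay slightly below the median of genes at 1 RPKM or more, 6.31 RPKM, and Hml had 1.18 ± 0.0543 RPKM. Thus the blood cell markers were not uniformly high.

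The heterochromatin genes were, with 1 exception, expressed in the parental cells. Of the 10, 9 averaged 1 RPKM or more, as did 49.5% of all genes, and 6 averaged 5 RPKM or more, as did 29.5% of all genes. HP1c lay just under the higher level at 4.99 RPKM, and egg, Su(var)3-7 and HP1b lay just above it. The median level of the 10 genes was 5.81 RPKM, with library medians of 5.55 and 6.09 RPKM (SD 0.378, n = 2). The median of all genes was 0.898 RPKM, and that of the 7548 genes at 1 RPKM or more was 6.31 RPKM. The list was therefore above the middle of all genes and close to the middle of expressed ones.

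**Figure D1:**
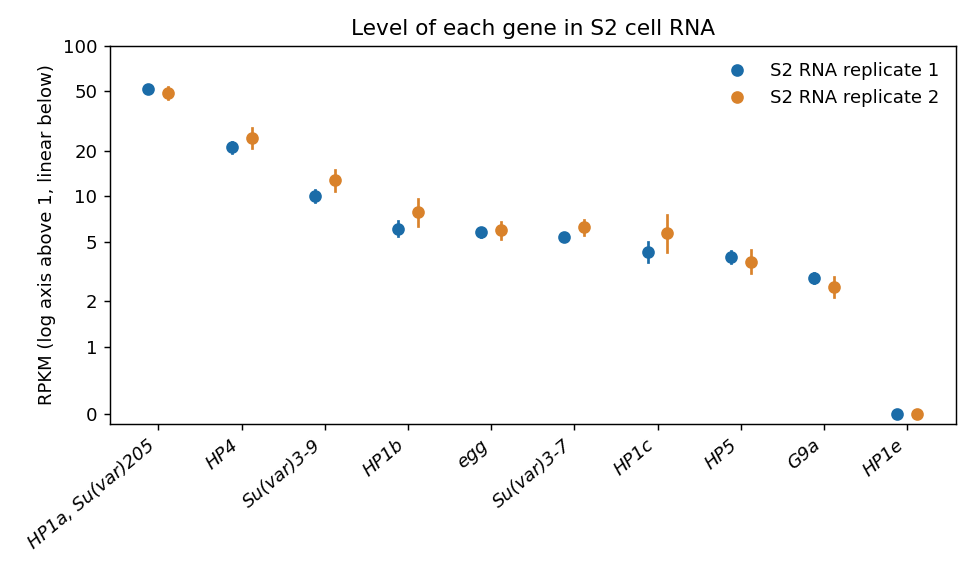
RPKM of each of the 10 genes (log axis above 1, linear below) in S2 RNA replicates 1 and 2, with each gene's level as a point and the 95% exact Poisson interval of its most-read transcript, scaled to the point, as a bar. HP1a stands at about 50.0 RPKM, 9 genes are above 0 in both libraries, and HP1e is at 0 in both.

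The HP1 genes covered the whole range of the list. HP1a, Su(var)205's protein and the name used here for the gene too, is the founding HP1 protein and the main H3K9 reader of pericentric heterochromatin. The gene had 51.5 RPKM in replicate 1 and 48.6 in replicate 2, averaging 50.0 ± 2.03 (SD, n = 2). This was the highest of the 10 genes in both libraries and stood at percentile 97.1 of all genes. Behind it lay at least 2010 and 485 reads on its most-read transcript.

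HP1b and HP1c encode HP1 proteins found also, or mainly, in euchromatin. HP1b had 6.09 RPKM in replicate 1 and 7.83 in replicate 2, averaging 6.96 ± 1.23 (SD, n = 2). HP1c had 4.28 and 5.71 RPKM, averaging 4.99 ± 1.01. Both were higher in the shallower library, and they had the widest spread of the list relative to their means, 17.7% for HP1b and 20.3% for HP1c. The 95% Poisson intervals of HP1c, 3.63 to 5.01 RPKM in replicate 1 and 4.27 to 7.46 RPKM in replicate 2, overlapped.

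HP1e, known for its expression in the male germline, was listed at 0 RPKM in both libraries. Of all genes, 11.2% were at 0 in both, and none of 6 housekeeping genes looked at was, the lowest of them, Tbp, being at 6.29 RPKM. With no read, the length of its transcript could not be recovered, so its upper limit can only be given for 1 kb, as above. HP1e overlaps the gene CG8861, which was also near 0, at 0.0604 RPKM in replicate 1 and 0 in replicate 2. Of the 6 germline genes, 2 averaged 1 RPKM or more, aub at 5.05 RPKM and piwi at 1.37 RPKM, both of the piRNA pathway. The other 4 were lower, among them the female germline HP1 gene rhi at 0.138 and 0.0671 RPKM.

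Set against each other, the HP1 genes were far from equal. HP1a was 8.46-fold above HP1b in replicate 1 and 6.21-fold above it in replicate 2. On the scale of log2(RPKM + 1), which is used for all log2 values here, the ratio was 2.69 ± 0.28 (SD, n = 2). HP1b was 1.42-fold above HP1c in replicate 1 and 1.37-fold in replicate 2, a log2 ratio of 0.41 ± 0.02. The counting interval of that ratio (95%, exact binomial) was 1.17 to 1.74 in replicate 1 and 0.971 to 1.96 in replicate 2, so in the shallower library alone the difference was not detectable. The order was the same in both libraries, although the range of HP1b, 6.09 to 7.83 RPKM, began only a little above the highest value of HP1c, 5.71 RPKM. Of the summed RPKM of the 4 HP1 genes, HP1a held 83.2% in replicate 1 and 78.2% in replicate 2, HP1b 9.84% and 12.6%, and HP1c 6.92% and 9.18%.

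The methyltransferase genes were lower than HP1a and closer together. Su(var)3-9 encodes the H3K9 methyltransferase of pericentric heterochromatin and gave its name to the SUV39 family. It had 10.1 RPKM in replicate 1 and 12.8 in replicate 2, averaging 11.5 ± 1.90 (SD, n = 2). Its level is uncertain, because the gene overlaps eIF-2gamma, a translation initiation factor gene, with which it is known to share its first exons. eIF-2gamma had 43.6 and 48.1 RPKM, which was 4.31-fold and 3.76-fold above Su(var)3-9. How many of the reads counted for Su(var)3-9 lie in shared exons was not tested.

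egg encodes the fly SETDB1 enzyme, required in the germline and acting elsewhere as well. It had 5.76 RPKM in replicate 1 and 5.94 in replicate 2, averaging 5.85 ± 0.127 (SD, n = 2), the smallest relative spread of the 9 genes above 0. It overlaps the antisense gene CR44067, which had 7.21 and 6.48 RPKM, and whether the counting used strand is not stated in the sources used here. G9a encodes a euchromatic H3K9 methyltransferase. It had 2.86 and 2.51 RPKM, averaging 2.69 ± 0.254, the lowest of the 9 genes above 0 in both libraries.

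The order of the enzymes was the same in both libraries. egg was 2.01-fold above G9a in replicate 1 (counting interval 1.82 to 2.22) and 2.37-fold in replicate 2 (1.93 to 2.92), a log2 ratio of 0.90 ± 0.13 (SD, n = 2). Su(var)3-9 was 1.76-fold and 2.16-fold above egg, a log2 ratio of 0.85 ± 0.19, and 1.75 ± 0.32 above G9a on the same scale. Each of these ratios exceeded its SD several fold, but an exact sign-flip test of a ratio over 2 libraries cannot give a two-sided p below 0.5. The part of reads shared with eIF-2gamma in the ratios of Su(var)3-9 was not tested.

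The genes of HP1-associated proteins also differed among themselves. HP4, an HP1a-binding protein, had 21.3 RPKM in replicate 1 and 24.5 in replicate 2, averaging 22.9 ± 2.32 (SD, n = 2), the second highest level of the list. Su(var)3-7, a zinc finger protein that binds HP1a and whose dose alters variegation, had 5.35 and 6.24 RPKM, averaging 5.80 ± 0.630. HP5, also an HP1a-associated protein, had 3.96 and 3.68 RPKM, averaging 3.82 ± 0.196. HP4 was thus above every gene of the list but HP1a in both libraries, whereas HP5 was above G9a and HP1e only.

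**Figure D2:**
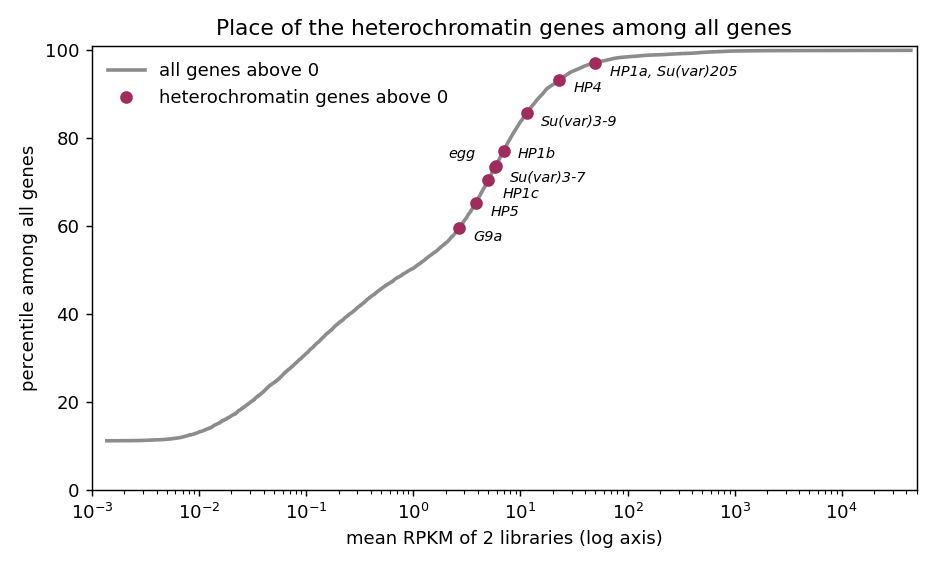
Percentile among all 15240 genes (vertical axis) against the mean RPKM of the 2 libraries (log axis), with all genes above 0 as a line and the 9 heterochromatin genes above 0 as points. The points run from G9a at percentile 59.6 to HP1a at percentile 97.1.

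Ordered by mean level, the genes ran HP1a, HP4, Su(var)3-9, HP1b, egg, Su(var)3-7, HP1c, HP5, G9a and HP1e. Of the 9 pairs of neighbours in that order, 7 had ranges over the libraries that did not overlap. The 2 that did were egg with Su(var)3-7, which also changed places between the libraries, and Su(var)3-7 with HP1c. Among all 45 pairs of genes, egg and Su(var)3-7 were the 1 pair whose order differed between the libraries. The highest mean was 18.6 times the lowest mean above 0. Among genes at 1 RPKM or more, G9a stood at percentile 18.5, HP5 at 29.9, HP1c at 40.4, HP1b at 53.8 and HP1a at 94.2.

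Several of the genes have more than 1 transcript in the table, and their entries show how the reads were counted. Whole reads and transcript lengths recovered from RPKM are the smallest that fit, since a factor common to both cannot be seen. Both HP4 transcripts had the same minimum reads, 534 for replicate 1 and 158 for replicate 2, on recovered lengths of 643 bases for NM_139909 and 717 bases for NM_168247. Their RPKM, 22.4 and 20.1 in replicate 1 and 25.9 and 23.2 in replicate 2, thus differed by length alone, 1.12-fold in either library.

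HP1b showed the same pattern. NM_001169242 and NM_132293 had equal minimum reads, 273 and 90, on 1114 and 1210 bases. The longer NM_001258657, with 1502 bases, had more reads, at least 301 and 96, and yet the lowest RPKM, 5.41 and 6.73. The entries of a gene thus share reads and are not independent measurements. Among all 4630 genes with several such transcripts, 31.0% had a pair with the same ratio of reads and different RPKM.

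**Figure D3:**
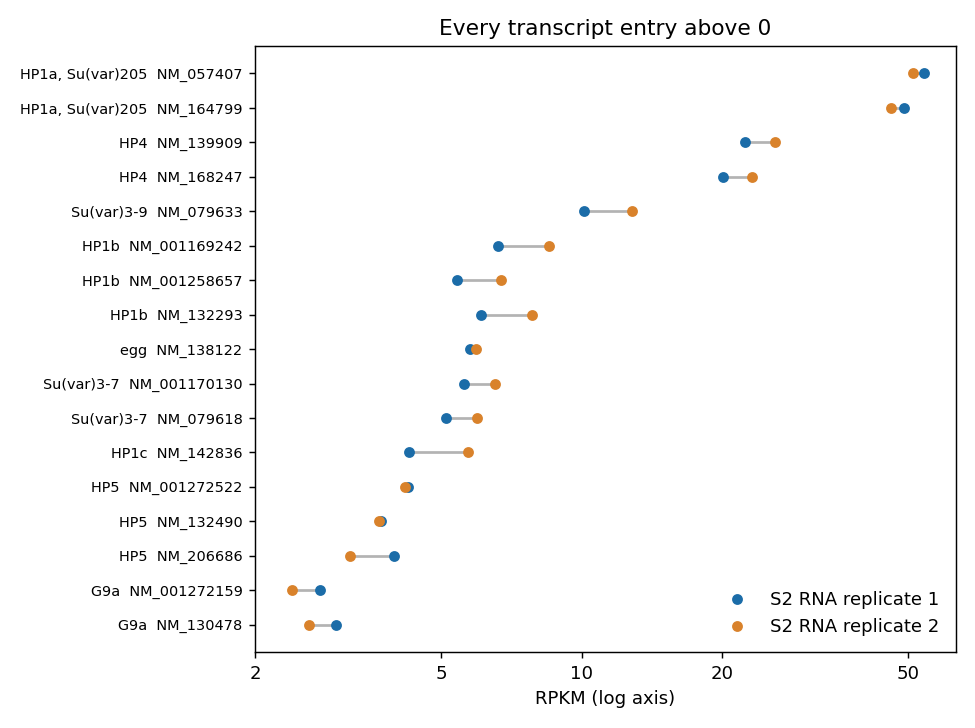
RPKM (log axis) of each of the 17 transcript entries above 0, with replicates 1 and 2 as points joined by a grey line, grouped by gene in order of level. Entries of 1 gene lie close together, and NM_206686 of HP5 is the entry whose replicates differ in another way from its neighbours.

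The transcripts of the remaining genes were also close. The highest entry was 1.11-fold above the lowest for HP1a in either library, with 54.1 and 51.2 RPKM for NM_057407 and 48.9 and 46.1 RPKM for NM_164799. The HP1a entries differed by 23 reads in replicate 1 and 3 in replicate 2 over 117 bases of length. For Su(var)3-7 the highest entry was 1.09-fold above the lowest in either library. For G9a it was 1.08-fold above the lowest in replicate 1 and 1.09-fold in replicate 2. None of the 6 genes with several entries had entries further apart than 1.31-fold.

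That widest gap was in HP5 in replicate 2. NM_001272522 of HP5 had 4.24 and 4.19 RPKM and NM_132490 had 3.72 and 3.68 RPKM, so both were nearly equal in the libraries. NM_206686 of HP5 had 3.96 RPKM in replicate 1 and 3.20 RPKM in replicate 2, from at least 256 and 53 reads. Its Poisson intervals, 3.49 to 4.47 RPKM and 2.39 to 4.18 RPKM, overlapped. The level of HP5 comes from NM_206686 in replicate 1 and NM_132490 in replicate 2, because the median fell on another entry in each.

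Whether the 2 libraries differed for these genes was tested on the recovered reads. For each gene with at least 10 reads, the part of its reads that came from replicate 2 was set against 20.4%, the part expected from the library sizes, by an exact binomial test (two-sided). After Benjamini-Hochberg adjustment 13.9% of 9882 genes passed at 0.05, 8.73% being higher in replicate 2 and 5.18% lower. Of the 9 heterochromatin genes tested, 0 passed in the exact binomial test on the smallest reads that fit. In the same test 2 of them had an unadjusted p under 0.05. The share of all genes under that unadjusted cut is not given here, so nothing is read from this count. For Su(var)3-9 the smallest reads that fit are too few, as given below. With the reads of the 10 genes doubled, its adjusted p in the exact binomial test was 0.00678. The test compares these libraries with each other and not a condition.

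Of the 9 genes, 6 had a higher level in replicate 2 and 3 a lower one. The share of all genes that were higher in replicate 2 is not given here, so nothing is read from this split. The largest differences, replicate 2 minus replicate 1, were those of HP1c at 0.35, HP1b at 0.32 and Su(var)3-9 at 0.31 on the log2 scale. G9a had -0.14, HP5 -0.08 and HP1a -0.08. The HP5 difference sets NM_206686 in replicate 1 against NM_132490 in replicate 2. On NM_132490 alone, the RPKM of replicate 2 was 0.989 times that of replicate 1. Among genes at 1 RPKM or more, the median difference was 0.01. The genes with an unadjusted p under 0.05 in the exact binomial test were Su(var)3-9, with p = 0.0164 and an adjusted p of 0.0949, and Su(var)3-7, with p = 0.0242 and an adjusted p of 0.125. eIF-2gamma, which overlaps Su(var)3-9, was also higher in replicate 2 (exact binomial test, adjusted p = 0.0388), and its part in the difference of Su(var)3-9 was not tested.

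These p-values rest on the smallest reads that fit. The recovered length of Su(var)3-9, 1193 bases with 447 and 145 reads, is shorter than the known coding sequence of the enzyme, so its true reads are a multiple of these. The reads of all 10 genes were also doubled, an alternative chosen after seeing the data, with those of other genes left as they were. The adjusted p of the exact binomial test was then 0.00678 for Su(var)3-9 and 0.0143 for Su(var)3-7. With that, 2 of the 9 genes passed, beside 13.9% of all 9882 genes tested. Only the 10 genes gained reads, so this count cannot be compared with that share. For Su(var)3-7, with recovered lengths of 4217 and 5051 bases, no such reason for doubling was found. Over all alternatives tried, the adjusted p of the exact binomial test ranged between 0.00678 and 0.130 for Su(var)3-9 and between 0.0143 and 0.173 for Su(var)3-7. For Su(var)3-9 only the lowest value comes from doubled reads, and the others come from reads too few for the gene.

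**Figure D4:**
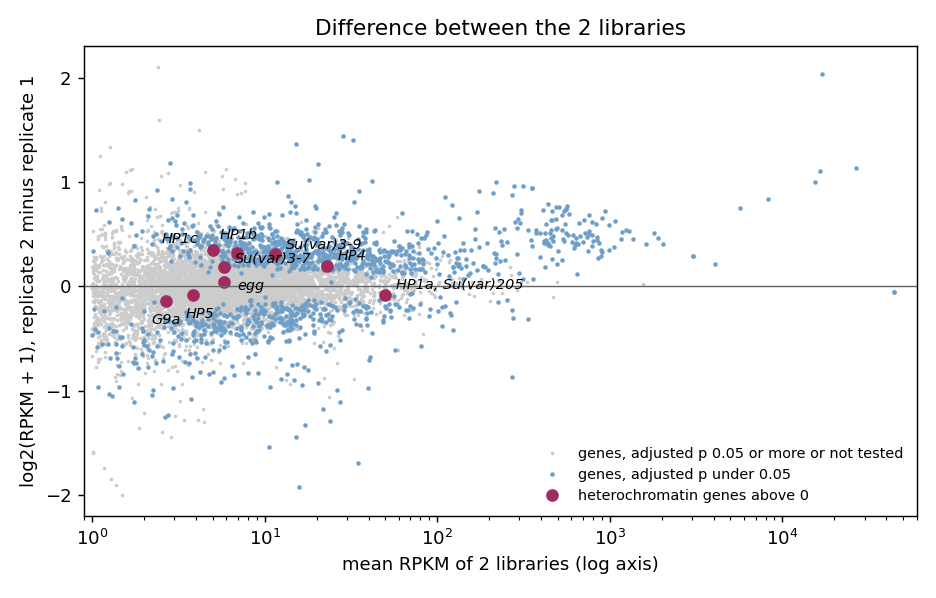
Difference in log2(RPKM + 1), replicate 2 minus replicate 1, against mean RPKM (log axis) for genes at 1 RPKM or more, in blue where the exact binomial test gave an adjusted p under 0.05. The 9 heterochromatin genes above 0 RPKM lie between -0.14 and 0.35.

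Other genes of the pathway were set beside the 10. A list of 15 genes of HP1 partners, chosen with earlier results of these data known, had a median of 7.36 RPKM. Of these, 11 were at 5 RPKM or more and 15 at 1 RPKM or more, beside 29.5% and 49.5% of all genes. The highest were vig2 at 55.5 ± 5.66 RPKM and vig at 26.2 ± 4.18 RPKM (SD, n = 2), which encode RNA-binding proteins that associate with HP1. Then came row at 12.3 ± 1.16 RPKM. The lowest were the telomere cap gene cav at 2.96 and 3.10 RPKM, Lhr at 1.99 ± 0.290 RPKM and HP6 at 1.74 ± 0.321 RPKM, the last with at least 9 and 3 reads. Lhr and HP6 encode fast-evolving heterochromatin proteins, and they were the partners closest to the lower level.

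In the exact binomial test, the reads of 6 of the 15 partner genes differed between the libraries, all higher in replicate 2, beside 8.73% of all genes tested. Of the 7469 tested genes at 1 RPKM or more, where all 15 partner genes lay, 853 were called higher in replicate 2. Among them in this exact test were vig (adjusted p = 1.67e-07), vig2 (adjusted p = 0.00264) and row (adjusted p = 0.0471). With a filter of 1 read in place of 10, 4 of the 15 passed, beside 9.33% of all genes tested, in either direction. With the share set from the median ratio of genes, 4 of the 15 also passed, beside 13.9% of all genes tested, in either direction.

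HP1c is known to act together with the zinc finger proteins encoded by woc and row. woc had 11.4 RPKM in replicate 1 and 10.6 RPKM in replicate 2, 2.66-fold and 1.85-fold above HP1c, and row had 11.5 and 13.1 RPKM, 2.68-fold and 2.30-fold above it. Both partner genes were thus above HP1c in both libraries, at log2 ratios of 1.01 ± 0.31 for woc and 1.16 ± 0.12 for row (SD, n = 2).

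A list of 8 enzymes and cofactors that act with or against H3K9 methylation had a median of 4.14 RPKM. This was below the median of the partner list and above that of all genes, 0.898 RPKM. Of the 8 genes, 2 were at 5 RPKM or more and 8 at 1 RPKM or more, beside 29.5% and 49.5% of all genes. The deacetylase gene Rpd3 was highest at 15.9 ± 0.767 RPKM (SD, n = 2), followed by the H3K9 demethylase gene Kdm4B at 5.76 ± 0.0940 RPKM and the H4 lysine methyltransferase gene Hmt4-20 at 4.39 ± 0.315 RPKM. The lowest were pr-set7, another H4 lysine methyltransferase gene, at 3.89 ± 0.0865 RPKM, Kdm4A, a demethylase gene, at 2.46 ± 0.146 RPKM and wde at 2.13 ± 0.0884 RPKM. wde encodes the cofactor of the egg enzyme, and its level was 0.380 times that of egg in replicate 1 and 0.348 times in replicate 2. The reads of 0 of the 8 genes differed between the libraries in the exact binomial test, adjusted or unadjusted, beside 13.9% of all genes tested after adjustment, a share too small to read anything from 8 genes.

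**Figure D5:**
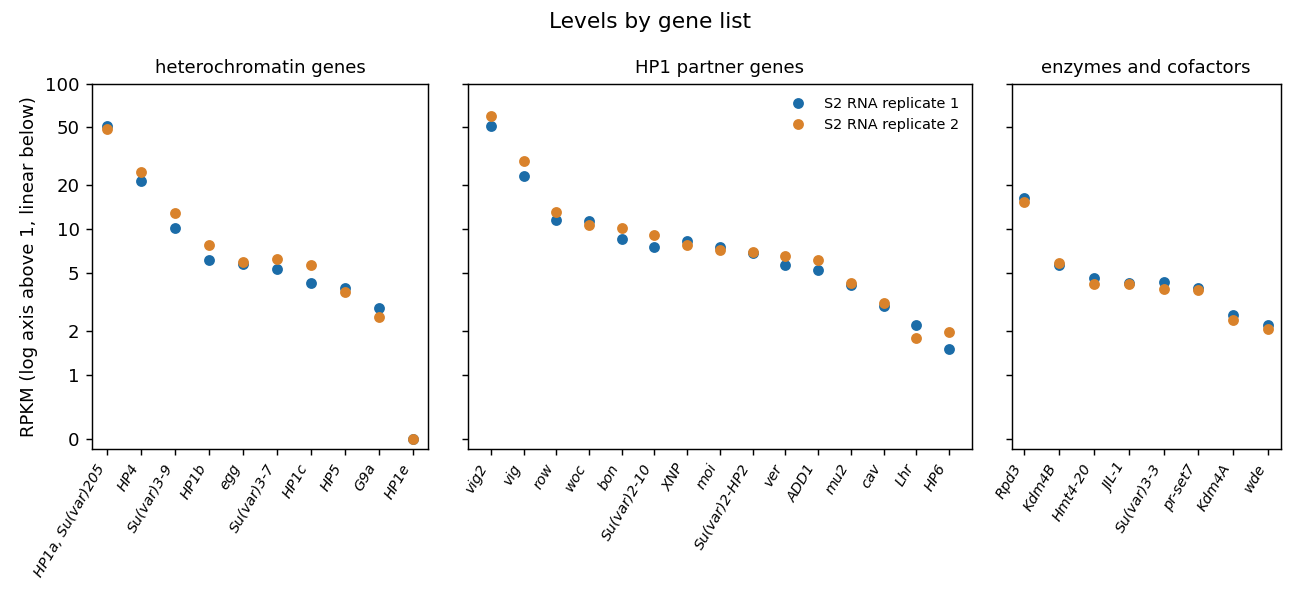
RPKM (log axis above 1, linear below) of the 10 heterochromatin genes, the 15 HP1 partner genes and the 8 enzyme and cofactor genes in S2 RNA replicates 1 and 2, each panel ordered by mean. Levels run up to 50.0 RPKM for HP1a, 55.5 RPKM for vig2 and 15.9 RPKM for Rpd3, and HP1e alone is at 0.

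Overlapping genes limit some of these levels. In a name table of a later genome release, 6 of the 10 genes overlap another gene and 4 do not. Besides the pairs given above, HP1a overlaps CG8419, at 0.783 and 0.325 RPKM, HP1c overlaps CG17141, at 3.25 and 2.79 RPKM, and Su(var)3-7 overlaps CG8449, at 3.53 and 4.50 RPKM. For HP1a the overlapping gene was thus far lower than the gene itself, while for HP1c and Su(var)3-7 it was of the same order. Whether reads of these neighbours were counted for the heterochromatin genes was not tested.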

How the data were processed

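Values of the 2 S2 RNA libraries were analysed. According to the methods of the study, TopHat placed single-end RNA reads on genome release 5 (dm3 per the labels). The deposited RPKM values were computed by the authors per RefSeq transcript, with replicates kept apart; for these files the program and its treatment of reads shared by transcripts or genes are not given in the sources used here.

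From the ratio of the columns (3.90) and the steps in the values, library sizes and whole reads were recovered with Python 3.11.15, NumPy 2.4.6 and SciPy 1.17.1. Of 23661 entries above 0 in both libraries, 97.7% came out as whole reads, meaning that the ratio of the columns fitted, within the rounding of the printed digits, a ratio of whole numbers so simple that accident would give one with a chance under 0.05. Lengths within 0.02 bases of a whole number, or within rounding, were accepted. At the library size used, 72.6% of the lengths of 5601 entries were within 0.05 bases of a whole number, against 38.3% with that size doubled. The procedure was also run on simulated data, the outcome of which is not reported here. Binomial tests used the most-read transcript of each gene, with at least 10 reads, and Benjamini-Hochberg adjustment over all genes. Intervals are 95% exact Poisson intervals, or exact binomial ones for ratios, and take in counting error alone, as PCR copies were not told apart by molecular identifiers. P-values measure the difference between these libraries.

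The pseudocount was 1, and the median level of a list was taken after averaging the libraries on the log2(RPKM + 1) scale. The 10 genes and the lists were chosen with earlier results of these data known. All 10 genes are named, with the 3 highest and 3 lowest genes of each pathway list and eIF-2gamma, with the cell type markers from a fixed list, while woc, Tbp and overlapping genes were named after their values were seen. ADD1 was matched as CG8290, NimC1 and nSyb by their older symbols, and all 18 entries by accession to a name table of release 6, from which no coordinates were taken. Planned comparisons of HP1 protein sequences and promoter motifs were not run.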

Additional observations from a re-analysis of the deposited data

How the results depend on the processing

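No paired analysis was possible because the values analysed are of a single group, S2 RNA, with nothing to pair it to. Fits of the ChIP samples were not run.

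The number of heterochromatin genes at 5 RPKM lay between 6 and 7 when 1 library was left out, since HP1c passes in replicate 2 alone, and that at 1 RPKM was 9 in each alternative tried. Their median level ranged from 5.55 to 6.09 RPKM without 1 library and was 5.78 RPKM without Su(var)3-9. The number whose reads differed between the libraries was 0 with every transcript tested, beside 17.2% of all transcripts tested. It was 0 with a filter of 1 read, beside 9.33% of all genes tested. It was also 0 with protein-coding genes alone and with the share from the median ratio, each beside 13.9%. It was 2 with the reads of these genes doubled, because more reads narrow the counting error. The share of all genes was then 13.9%, but the other genes kept their reads, so the 2 cannot be compared with it. For Su(var)3-9 the counts of 0 rest on reads too few for the gene, as given above. The log2 ratio of HP1b to HP1c was 0.41, and became 0.47 with a pseudocount of 0.1, 0.48 with none and 0.52 with the highest transcript of each gene. That of egg to G9a was 0.90, and became 1.10 with a pseudocount of 0.1 and 1.13 with none. That of Su(var)3-9 to G9a was 1.75, and became 2.09 with no pseudocount. A smaller pseudocount widens ratios of low values by construction. Taking the highest transcript raised HP1b from 6.09 to 6.61 RPKM in replicate 1 and from 7.83 to 8.51 RPKM in replicate 2. HP1c has 1 transcript, so its level stayed the same. No ratio changed sign. Depth limits what replicate 2 shows for HP6, with at least 3 reads there, and Lhr, with at least 5, and HP1e has no read in either library.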
